A study of Mus musculus with 4 samples.

Results

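Open chromatin in hematopoietic stem cells (HSCs) of adult C57BL/6 mice was mapped by ATAC-seq, which relies on a transposase that cuts and tags accessible DNA. The sites described here are the accessible regions inside introns, away from promoters, that were called in both genotypes. A site was selected on its position and on its presence in both peak lists: a KO peak on an autosome that shared at least 1 bp with a WT peak, whose summit lay more than 2.5 kb from any annotated start site, within the body of a protein-coding gene and in no exon (GENCODE M21). Of the 36600 autosomal KO peaks, 6152 met this rule, and they lay in 3206 protein-coding genes, called hosts below.

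Both genotypes carried floxed Med23 alleles, written Med23floxp/flowp in the labels. WT mice had no cre transgene, and KO mice carried Mx1-cre in addition. Mx1-cre is driven by an interferon-inducible promoter and is not restricted to stem cells. In the study's methods deletion was induced with poly(I:C), and the labels do not state the interval between injection and sorting for these samples. By the labels, HSCs were sorted from bone marrow as LSK CD150+CD34-CD48-, and 5000 cells entered each reaction. The study's methods give the ATAC-seq phenotype without CD34. The labels give 2 samples per genotype, and the labels of both name the same peak list. The comparison is thus between 1 WT list and 1 KO list, with no spread between replicates, and none of the differences below could be tested. The intervals given cover counting error over regions or fragments only.

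Introns of long genes hold a large share of mammalian enhancers, short regions bound by transcription factors that act on promoters over a distance. In blood stem cells such regions are typically bound by ETS, RUNX and GATA family factors, and the introns of Runx1, Erg and Meis1 are known for stem cell enhancers. Med23 is a subunit of Mediator, the complex that links factors bound at enhancers to RNA polymerase II at promoters. An intronic site need not act on its host.

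The deleted gene was examined first. Med23 had a promoter peak in each list and held none of the sites, in 16.7 kb of intron that could have held one. Of 10 HSC marker genes, 6 (Mecom, Tek, Kit, Fgd5 and Hlf among them) had a peak summit within 1 kb of a start site in both lists, while Slamf1, Procr, Hoxb5 and Ly6a had none in either. The summed summit pileup of the 10 promoters was 166 in WT and 181 in KO. Among 5 markers of mature myeloid cells, 3 (S100a8, S100a9 and Ltf) had a promoter peak in the WT list, with a summed pileup of 30, and 0 of 5 in the KO list. Their WT pileups were low, at 11, 10 and 9, where shared WT peaks near start sites had a lower quartile of 18. Pileups below the calling limit in KO are not known. In both lists 1 of 5 lymphoid markers, Cd3d (pileup 33 in WT, 20 in KO), and 2 of 4 erythroid markers, including Epor (32 in WT, 31 in KO), had a promoter peak. Neither the 5 lymphoid nor the 5 myeloid nor the 4 erythroid markers held a site, and 0 of 5 markers of tissues other than blood had a promoter peak in either list. The part of the myeloid marker difference in the results below was not tested.

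For 6018 sites, the region held 1 peak of each list. In those regions the enrichment at the summit was compared as the ratio of recovered summit pileups over the list's background. The pileup is the number of fragments or reads stacked at the summit, solved from the authors' fold enrichment and p-value. Of the remaining 134 sites, 26 overlapped several WT peaks, and the others overlapped a WT peak that another KO peak also overlapped. These 134 entered the counts of hosts and motifs, but not the ratios. The WT summit was also intronic and distal for 6078 of the 6152 sites. It fell within 2.5 kb of a start site for 35, in an exon for 38 and between genes for 1. At the edges of the rule, the site nearest to a start site was at 2503 bp, in Mgrn1, and the shared intronic peak just left out was at 2499 bp, in Ptprn2. The smallest overlap with a WT peak was 7 bp, in Cntln, against a median of 436 bp, and the nearest miss was a KO peak 5 bp away from a WT peak.

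The sequences under 8 summits are shown as examples. They are the strongest site in each of 5 transcription factor genes, the strongest site of all, and the sites with the highest and the lowest KO to WT ratio. Gata2 held no site. Each run is 200 bp of the GRCm38 reference centred on the KO summit, plus strand, 5′ to 3′. Capitals mark matches to any of 18 fixed motifs, which are spelled out further on. The Runx1 site lies at chr16:92801730-92801929, in intron 2 of 7 of the principal transcript. The Meis1 site, at chr11:18970027-18970226, lies in intron 7 of 11, and the Ikzf1 site, at chr11:11763417-11763616, in intron 7 of 7. The Erg site, at chr16:95439222-95439421, lies in intron 2 of 10, and the Fli1 site, at chr9:32515936-32516135, in intron 1 of 8.
Runx1: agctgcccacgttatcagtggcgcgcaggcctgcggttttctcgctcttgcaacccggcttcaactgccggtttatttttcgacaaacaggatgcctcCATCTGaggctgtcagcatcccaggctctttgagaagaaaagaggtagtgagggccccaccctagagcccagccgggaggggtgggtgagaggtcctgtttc
Meis1: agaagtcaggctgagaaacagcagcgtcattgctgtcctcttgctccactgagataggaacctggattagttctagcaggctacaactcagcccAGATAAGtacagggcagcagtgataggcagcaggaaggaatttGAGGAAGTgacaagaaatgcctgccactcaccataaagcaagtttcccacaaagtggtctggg
Ikzf1: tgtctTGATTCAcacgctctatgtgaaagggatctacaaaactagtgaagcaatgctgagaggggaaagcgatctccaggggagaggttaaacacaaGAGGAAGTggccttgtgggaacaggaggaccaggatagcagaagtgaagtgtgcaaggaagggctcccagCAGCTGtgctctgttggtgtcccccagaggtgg
Erg: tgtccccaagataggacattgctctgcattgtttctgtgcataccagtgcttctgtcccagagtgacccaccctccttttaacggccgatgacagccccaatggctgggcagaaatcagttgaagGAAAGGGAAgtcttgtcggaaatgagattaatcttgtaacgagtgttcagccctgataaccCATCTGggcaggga
Fli1: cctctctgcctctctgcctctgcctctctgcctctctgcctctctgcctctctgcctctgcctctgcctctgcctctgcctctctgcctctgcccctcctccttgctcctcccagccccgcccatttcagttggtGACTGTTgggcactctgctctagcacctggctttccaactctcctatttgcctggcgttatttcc
The Runx1 window held 1 match, to the SCL-type E-box. In Meis1 a GATA match and a PU.1 match stood near each other, in Ikzf1 AP-1, PU.1 and E-box matches, in Erg IRF and SCL-type E-box matches, and in Fli1 a MYB match beside a tract of short CT-rich repeats.

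The strongest site by the authors' fold enrichment in KO lies in intron 1 of 25 of Dpp6, at chr5:27206318-27206517. The highest ratio of KO to WT was at Frmd3, at chr4:74191641-74191840, and the lowest at Cadps, at chr14:12657430-12657629. The choice among ratios was limited to sites with a summed pileup of at least 40.
Dpp6: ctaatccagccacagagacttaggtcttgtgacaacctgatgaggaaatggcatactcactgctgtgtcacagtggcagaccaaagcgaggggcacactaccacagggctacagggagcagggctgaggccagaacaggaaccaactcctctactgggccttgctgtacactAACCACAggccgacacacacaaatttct
Frmd3: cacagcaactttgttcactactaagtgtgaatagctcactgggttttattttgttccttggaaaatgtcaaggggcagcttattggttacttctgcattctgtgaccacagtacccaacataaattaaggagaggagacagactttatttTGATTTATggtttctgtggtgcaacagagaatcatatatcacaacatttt
Cadps: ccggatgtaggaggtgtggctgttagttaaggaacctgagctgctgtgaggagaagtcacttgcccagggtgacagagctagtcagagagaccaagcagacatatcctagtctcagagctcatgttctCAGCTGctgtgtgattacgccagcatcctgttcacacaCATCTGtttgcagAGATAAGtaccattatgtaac
A RUNX match lay in the Dpp6 window and a HOX match in the Frmd3 window, while the Cadps window held an E-box, an SCL-type E-box and a GATA match.

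The hosts were few among the genes that could have held a site. Of 15877 autosomal protein-coding genes with eligible intron, which is intron that meets the rule, 3206 (20.2%) held at least 1 site. A host held 1 site in 1893 cases, 2 in 602, 3 or 4 in 479, and 5 or more in 232. Per 100 kb of eligible intron there were 0.828 sites. Hosts had long introns, with a median of 65.2 kb of eligible intron against 9.95 kb in the genes that held none. The share of hosts was 3.01% of the genes with up to 10 kb, 15.5% at 10 to 30 kb, 35.6% at 30 to 100 kb and 65.5% above 100 kb. Density followed another order: it was 0.812, 0.982 and 1.04 sites per 100 kb in the first 3 of these groups and 0.728 in the longest genes.

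Hosts more often had an accessible promoter. In the KO list a promoter peak was present in 83.0% of hosts and in 63.9% of the genes with eligible intron and no site. Genes with a promoter peak held 0.944 sites per 100 kb and those without held 0.464. This difference was seen at each intron length. Above 100 kb, 71.1% of the 1409 genes with a promoter peak and 42.9% of the 347 genes without one were hosts, and at 10 to 30 kb the shares were 17.4% of 2904 and 11.2% of 1276. Still, 545 hosts had no KO promoter peak. Among them was Adora3, an adenosine receptor gene, with 4 sites in 28.5 kb.

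Within the hosts, sites were spread along the gene body, with 24.6% in the first 25% of its length, 27.3% and 25.6% in the following ones and 22.5% in the last. First introns nevertheless held more than their share of the length. Of the 5610 sites inside an intron of the principal transcript, 1712 (30.5%, 95% Wilson interval 29.3 to 31.7) were in the first intron, which made up 24.3% of eligible intron. The densities were 1.03 sites per 100 kb in first introns and 0.757 in the others. The median distance to the nearest start site was 13.1 kb (quartiles 6.68 and 26.8 kb), and 188 sites were more than 100 kb away. That nearest start site belonged to a host for 62.6% of sites, and for 31.5% it belonged to a non-coding gene. Another site of the same host lay within 5 kb of 496 sites (8.06%). By chromosome, density ranged from 0.608 per 100 kb on chromosome 1 to 1.05 on chromosome 17.

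Of all hosts, Gm20388 held the most sites, 51. This gene model spans 4.43 Mb of chromosome 8 and encloses 71 other protein-coding genes, and 34 of the 51 sites had a second host. Fgfr2, a fibroblast growth factor receptor gene with 20 sites, is likewise annotated over 2961 kb with 29 other coding genes inside. Gse1 followed with 16 sites in 312 kb of eligible intron (5.12 per 100 kb), and all of its sites also lay in Gm20388. Pde4d, which encodes a phosphodiesterase of cyclic AMP, and Dlg2, a synaptic scaffold gene, held 16 each, at 1.13 and 0.916 per 100 kb. Bach2, a repressor of myeloid genes in lymphoid progenitors, held 13 (4.30 per 100 kb). Maml3, a Notch coactivator gene, and Arid1b, a subunit of the BAF chromatin remodeler, each had 12, at 3.66 per 100 kb. The sodium-calcium exchanger gene Slc8a1 and the Rac activator gene Elmo1 also had 12, at 3.62 and 2.60. Among hosts with 3 or more sites, those of highest density were short genes. Csk, which encodes the kinase that restrains Src family kinases, held 3 sites in 8.86 kb (33.9 per 100 kb), followed by Itprip (16.3), Arl4a (15.6), Tnfrsf1b (14.7) and Adora3 (14.02). The sites of Adora3 also lay in the overlapping host Tmigd3, and those of Itprip also lay in a longer overlapping host.

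**Figure D1:**
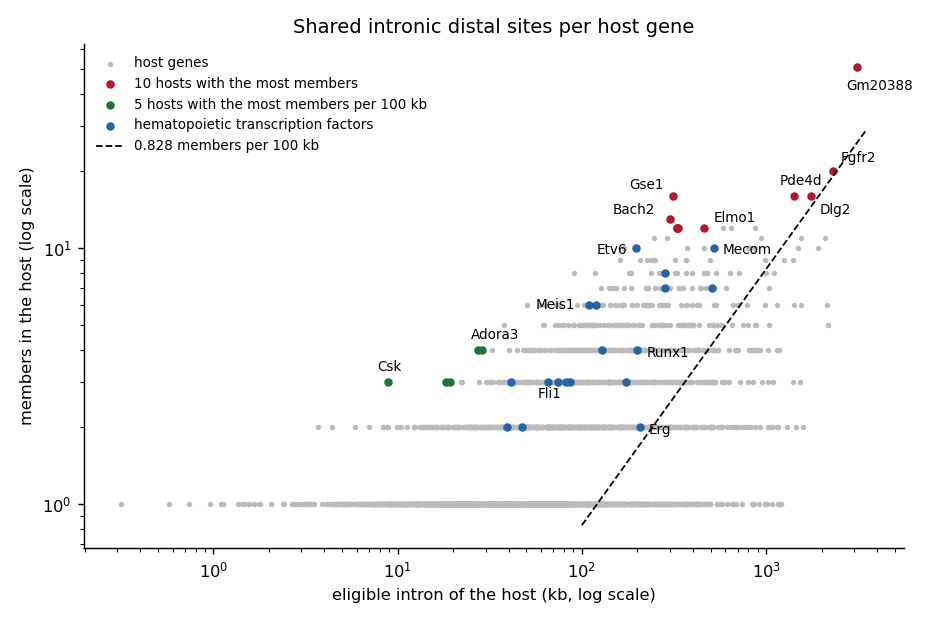
Number of shared intronic distal sites in each host gene (vertical axis, log scale) against the eligible intron of the host in kb (horizontal axis, log scale). Each point is a gene, and the dashed line is the genome-wide density of 0.828 sites per 100 kb. Gse1, Bach2, Etv6 and Meis1 lie well above the line, Fgfr2 and Dlg2 close to it, and among hosts with 3 or more sites the short gene Csk lies farthest above it.

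Transcription factor genes of the blood system held sites at a higher density than introns as a whole. Of 27 such genes with eligible intron, 18 were hosts, with 86 sites and 2.49 sites per 100 kb in all (median over genes 2.00, against 0 over all genes and 0.828 per 100 kb in all). Cytokine and growth factor receptor genes had 2.56 per 100 kb in all and a median over genes of 0, with 9 hosts of 25 and 34 sites, and the hosts with the most sites were Igf1r with 11, Tnfrsf1b with 4 and Notch2 with 4. Genes of intracellular signaling held 80 sites in 21 of 30 genes (1.88 per 100 kb), led by Elmo1 with 12 and by the kinase gene Jak1 and the Rap exchange factor gene Rapgef2 with 8 each. Among chromatin regulators, 14 of 30 held 39 sites (1.44 per 100 kb), including Arid1b and the DNA methyltransferase gene Dnmt3a with 3. Of the 28 genes of Mediator subunits and their kinases, 5 held 16 sites (1.68 per 100 kb), of which 6 were in Med12l, 5 in Med13l and 3 in Cdk19.

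Density differed among the lists of blood lineages. The 18 sites of megakaryocyte, platelet and adhesion genes lay in 9 of 20 genes (2.009 per 100 kb), among them Mmrn1 with 4, Itga9 with 3 and Plek with 2. Mature myeloid genes held 2 sites in 14 genes (0.555 per 100 kb), 1 in Csf1r and 1 in Mrc1. Erythroid genes held 3 in 14 genes (0.501 per 100 kb), 1 each in Bcl2l1, Sptb and Ank1. Lymphoid genes held 12 in 8 of 21 genes (0.904 per 100 kb), with 3 in Il2ra and 2 each in Gata3 and Lef1. Long synaptic genes of neurons held 117 sites in 21 of 24 genes, with a median of 1138 kb of eligible intron, and their density was 0.372 per 100 kb, the lowest of the 10 lists. In Dlg2, Nrxn3 and Cntnap2 there were 16, 11 and 11. The lists were written with results of these data known, and no test of a list was made.

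Hematopoietic transcription factor sites are given by their fold enrichment over the local background, in the WT and then in the KO list. These folds are not scaled between the lists. Over all shared autosomal regions the median ratio of KO to WT fold was 1.20. In Runx1, a master regulator of the emergence of blood stem cells, the 4 sites had 9.82, 7.97, 5.75 and 5.16 in WT and 12.6, 11.3, 8.4 and 4.28 in KO. The strongest, in the window printed above, is 23.9 kb from the nearest start site and was nearly as wide in KO (1189 bp) as in WT (1280 bp). Its pileups were 56 in WT and 55 in KO. After the shared median was subtracted, its log2 ratio was -0.11 (95% binomial interval -0.67 to 0.45).

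The highest fold enrichment among these genes was at Meis1, a homeobox cofactor gene expressed in HSCs. Its 6 sites ranged between 3.59 and 10.3 in the WT list and between 4.03 and 15.4 in the KO list. The printed site had 10.0 in WT and 15.4 in KO, with pileups of 64 and 88 and a log2 ratio of 0.38 above the shared median (-0.10 to 0.86). A second site with PU.1 and GATA matches had 10.3 and 10.6, and its log2 ratio was -0.31 relative to the shared median (-0.90 to 0.28). The pair lay on opposite sides of the shared median, and both intervals held 0.

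Mecom and Etv6, which encode a regulator of stem cell maintenance and an ETS repressor, held 10 sites each. In Mecom, 8 of 10 were above the shared median, where 3381 of all 6018 sites were above it. The median log2 value in Mecom was 0.23, and its strongest site had 9.76 in WT and 11.7 in KO. Etv6 was divided, with 5 of 10 above. At its site in intron 2, 19.8 kb from a start site, the fold was 4.43 in WT and 9.97 in KO (relative log2 ratio 0.92, interval 0.01 to 1.88). Another, in intron 1, had 7.86 in WT and 6.14 in KO (-0.83, interval -1.66 to -0.03). Of the 86 sites in the listed transcription factor genes, these 2 had an interval that did not include the shared median. Over all shared regions the interval lay wholly above it for 1.91% and wholly below it for 1.54%.

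In Prdm16 2 of 7 sites were above the shared median, in Mef2c 2 of 6 and in Zfpm1, the GATA cofactor FOG1, 0 of 3. In Bcl11a and Fli1 3 of 3 were above, and in Erg 2 of 2. The sites of Erg had 6.50 and 3.52 in WT and 8.47 and 5.48 in KO. Those of Fli1 had 6.02, 4.11 and 4.69 in the WT list, against 8.06, 5.86 and 5.50 in the KO list. For Ikzf1, which encodes a lymphoid and stem cell zinc finger factor, WT had 6.51, 6.08 and 7.38 and KO had 7.16, 6.24 and 5.27. Pileups were between 6 and 88 per site, and the intervals of the other 84 sites included the shared median. Of all 6018 sites 3381 lay above it, with a median of 0.06, and of the 86 sites in the list 42, with a median of -0.02. At least 1.5-fold above it were 6 (6.98%) and at least 1.5-fold below it 8 (9.30%), near the 7.56% and 7.92% of all shared autosomal regions.

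**Figure D2:**
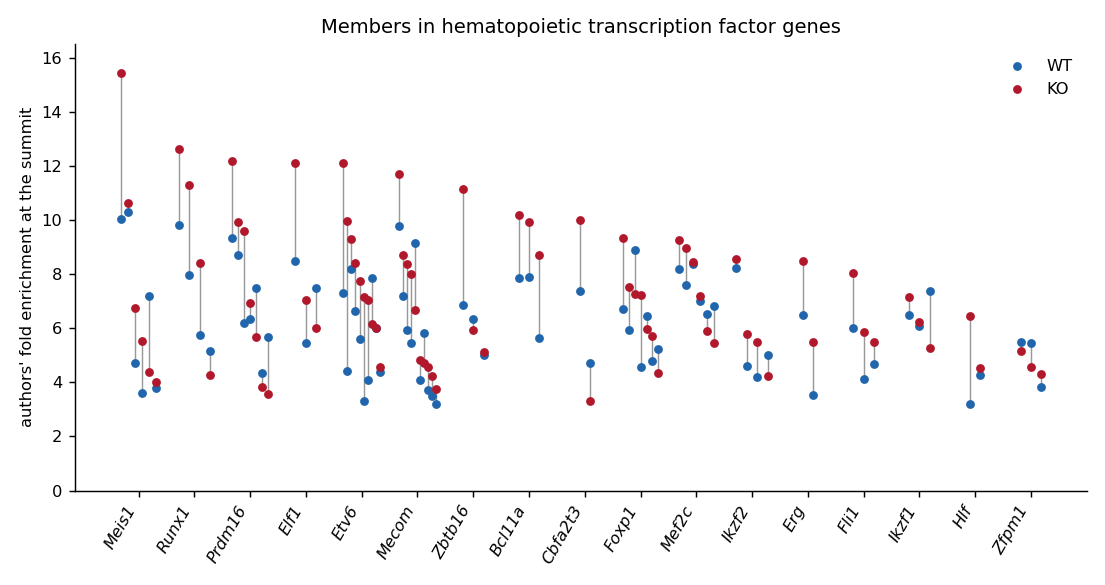
Authors' fold enrichment at the summit (vertical axis, from 0) of each site in all but 1 of the 18 hematopoietic transcription factor hosts, with WT in blue and KO in red joined by a line for each site. Genes are ordered by their strongest KO site, from Meis1 at 15.4 to Zfpm1 at 5.15, and both directions occur within Etv6 and Meis1. Over all shared autosomal regions the median ratio of KO to WT fold was 1.20.

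Median widths were close in the KO and WT lists. The median width in regions with 1 peak of each list was 578 bp in WT (quartiles 398 and 815) and 570 bp in KO (407 and 786). The median log2 ratio of KO to WT width was 0.01 (95% interval of the median 0.0042 to 0.03), with an SD of 0.63 across sites. Shared peaks near start sites were wider (883 bp for WT, 867 bp for KO), and intergenic ones were like the intronic sites, 580.5 and 577 bp. At least 1.5-fold wider in KO were 938 sites (15.6%), against 12.1% of all shared autosomal regions, and at least 1.5-fold narrower were 907 (15.1%), against 12.2%. Ranks by width in WT and in KO had a Spearman rho of 0.54 across the 6018 sites and 0.76 across shared sites near start sites, which also have higher pileups.

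The widest KO peak lay in Trio, a guanine nucleotide exchange factor gene, and spanned 2734 bp in WT against 2964 bp in KO. In Mocos the widths in WT and KO were 2217 and 2221 bp, in Khdrbs3 2118 and 2075, in Fads2 1601 and 2022, and in Eps8 1990 and 2007. These 5 differed by less than 1.5-fold. The summits were close, with a median offset of 40 bp between the lists, and 57.3% lay within 50 bp of each other.

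The next comparison asked whether enrichment at the sites differed between KO and WT cells. Median summit pileups were 17 in WT and 19 in KO. The median log2 ratio of KO to WT, as pileup over the list's background, was 0.23 (95% interval 0.22 to 0.25), a 1.17-fold ratio, with 4177 of 6018 sites (69.4%) above 0. All 28119 autosomal regions with 1 peak of each list had a median of 0.17. The scale between the lists is uncertain, so values are given from here on relative to that shared median. On this scale the sites were at 0.06 (0.05 to 0.08), with an SD of 0.45 across sites. Intergenic distal sites were at 0.05 (0.04 to 0.06) and sites within 2.5 kb of a start site at -0.05 (-0.07 to -0.04).

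The order of intronic sites and promoters depended on the measure. In the authors' fold enrichment, which divides by the background around each peak, the intronic sites were at -0.01 relative to the shared median and the sites near start sites at 0.01. The local background was lower in KO than in WT, with a median log2 ratio of -0.10 at the intronic sites and -0.30 near start sites. These local values are not scaled between the lists, and the list background itself was 1.19 in WT and 1.13 in KO. By the first measure intronic sites were thus higher than promoters by 0.11 on the log2 scale, and by the second lower, with a difference of -0.02. The intronic and intergenic distal sites lay within 0.02 of each other by both measures.

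By the pileup measure, 675 sites (11.2%, 95% Wilson interval 10.4 to 12.04) were at least 1.5-fold above the shared median, against 7.56% of all shared regions, and 464 (7.71%, 7.06 to 8.41) were at least 1.5-fold below it, against 7.92%. Near start sites the shares were 4.37% and 7.93%, and between genes 10.9% and 8.24%. In the authors' fold enrichment 255 sites (4.24%) were that far above and 440 (7.31%) that far below, against 3.13% and 6.04% of all shared regions. Sites past the limit thus were more frequent above than below by pileup and more frequent below than above by fold. For single sites counting error was large. The 95% binomial interval of the ratio lay wholly above the shared median for 157 sites (2.61%), against 1.91% of all shared regions, and wholly below for 57 (0.947%), against 1.54%.

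**Figure D3:**
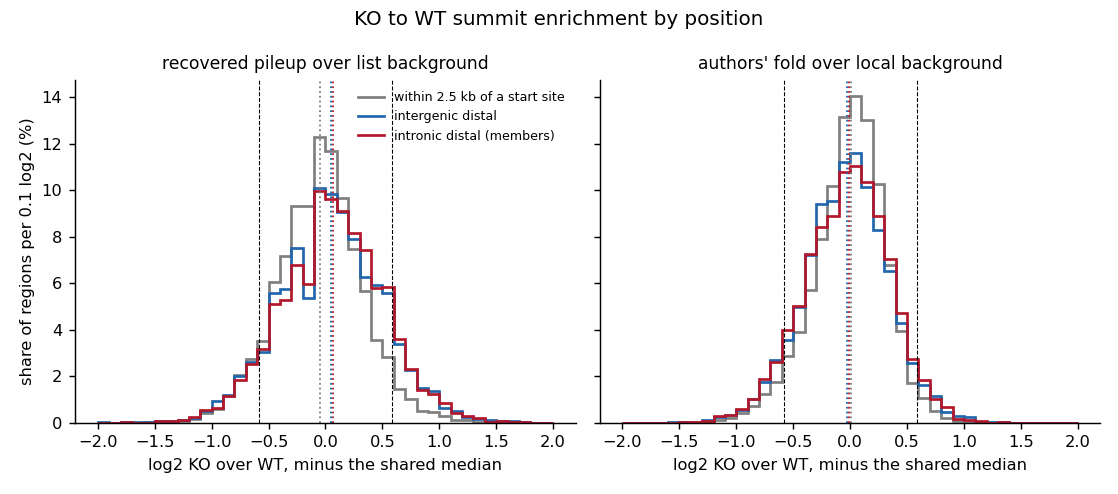
Distribution of the log2 KO to WT ratio minus the median of all shared regions (horizontal axis) as the share of regions per bin (vertical axis), from recovered pileups (left) and from the authors' fold enrichment (right). Dotted lines are medians and dashed lines mark 1.5-fold; by pileup the intronic and intergenic curves lie to the right of the curve for sites near start sites, and by fold the 3 medians nearly coincide.

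Sites with more fragments had higher ratios. The sites were divided into 5 groups by the summed pileup of both lists, from 12 to 24 in the lowest to 61 or more in the highest. The median relative ratio was -0.08, 0.02, 0.08, 0.09 and 0.13 from the lowest to the highest group. Equal pileups in both lists give -0.08, and ratios of small whole numbers fall on few values. Shared sites near start sites were at -0.08 in the first 4 groups and -0.02 in the highest. The highest group reached 320 in the intronic sites and 1224 near start sites, and with those above 320 left out the latter stayed at -0.02 by pileup and 0.08 by fold, with a median summed pileup of 100 against 81. In the authors' fold, intronic sites were at -0.16, -0.08, -0.0031, 0.02 and 0.10 and sites near start sites at -0.20, -0.13, -0.09, -0.03 and 0.08. Within the groups the intronic sites were the higher ones, by pileup from the second group up and by fold in all 5, while the pooled order by fold was the opposite. Sites near start sites have more fragments, with a median summed pileup of 58 against 36. In groups by GC content the relative ratio went from 0.08 at 29.5 to 44% to 0.03 at 55.5% and above. By fold the 5 groups showed no such fall, with -0.03 in the lowest and -0.01 in the highest.

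**Figure D4:**
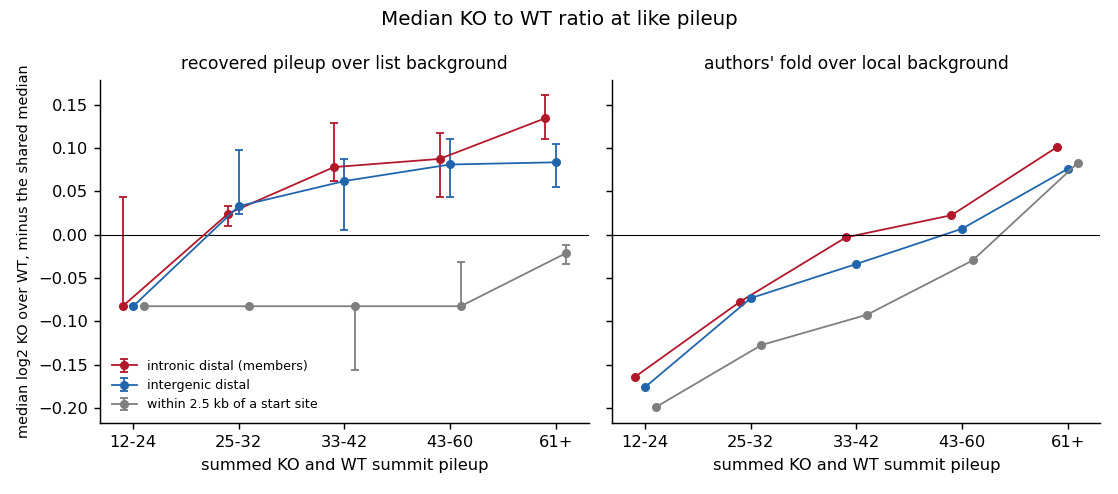
Median log2 KO to WT ratio minus the median of all shared regions (vertical axis) in 5 groups of summed KO and WT summit pileup (horizontal axis), from recovered pileups with 95% intervals of the median (left) and from the authors' fold enrichment (right). In each group from 25 fragments up, the red points of the intronic sites lie above the gray points of sites near start sites.

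Differences in height and in width went together in part. Of the 675 sites at least 1.5-fold above the shared median, 201 were also at least 1.5-fold wider in KO and 42 narrower. Of the 464 below, 171 were narrower and 19 wider. Over all shared autosomal regions, 624 of the 2125 above were wider and 127 narrower. Of the 2226 below, 656 were narrower and 121 wider. Across the 6018 sites the Spearman rho of the ratios was 0.29, and across all shared autosomal regions it was 0.24. Both values come from the same fragments.

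The strongest site, in Dpp6, a gene of a potassium channel subunit in neurons, had a fold of 13.1 in WT and 22.9 in KO. Its pileups were 76 and 136, and its relative log2 ratio was 0.76 (0.34 to 1.18). The site of Gm17655 had 17.0 in WT and 19.8 in KO, that of the potassium channel gene Kcnq5 13.7 and 19.1, that of Crybg3 13.0 and 19.0, and that of Lrmda 11.9 and 19.0. Relative ratios were -0.01, -0.05, 0.33 and 0.53, and the interval excluded 0 in Lrmda and Dpp6. These 5 were selected on their KO value, and over all shared autosomal regions the median ratio of KO to WT fold was 1.20.

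Among the 2625 sites with a summed pileup of at least 40, chosen for their ratio, Frmd3 was highest in KO. Its pileup was 10 in WT and 34 in KO, its fold 5.01 and 14.9, and its relative log2 ratio 1.68 (0.63 to 2.87). The autophagy protease gene Atg4c had pileups of 10 and 32 (1.60), the myosin gene Myo5c 11 and 33, the adhesion gene Negr1 11 and 33 and Sergef 11 and 32 (1.46). The peak in Negr1 was also wider, with 895 bp in KO against 228 bp in WT. At the other end, Cadps, a gene of vesicle exocytosis, had pileups of 39 in WT and 12 in KO, folds of 9.51 and 6.08, and a relative log2 ratio of -1.78 (-2.85 to -0.82). A site within both Glp2r and Gas7 had 42 and 13 (-1.77), and sites in the RNA-binding protein gene Celf2 40 and 16 (-1.404), in Ptpn14 32 and 13 (-1.38) and in Opcml 54 and 22 (-1.38). In Opcml, Ptpn14 and Celf2 the KO peak was also the narrower one, at 286, 458 and 263 bp against 804, 1113 and 621 bp. They are the extremes of many sites and are given as a description.

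Sites of a host often lay on both sides of the shared median. In 138 hosts with 6 or more regions of 1 peak each, the median relative ratio ran from -0.70 in Gpc5 to 0.49 in Nbea, with 84 above 0, and in 0 of them were all sites on one side of it. Of the 82 hosts with 5 such regions, 8 had all above and 2, Ttc28 and Cfap61, all below. The 8 had medians between 0.28 in Tmigd3 and 0.70 in Entpd1, the gene of the surface ectonucleotidase CD39, where 4 of 5 sites were at least 1.5-fold above. These hosts were picked out by their values. The lowest were Gpc5 (1 of 6 sites above), the histone deacetylase gene Hdac9 (2 of 10), Ctif (1 of 8), Mef2c (2 of 6) and Tiam1 (4 of 11). The highest were Nbea (7 of 8), Khdrbs3 (5 of 6), Adarb2 (5 of 6), Cmss1 (5 of 7) and Cdk14 (6 of 7). In Pde4d 4 of 16 sites were above, and in Elmo1 8 of 12. Across chromosomes the median ranged from 0.0012 on chromosome 14 to 0.12 on chromosome 19. By gene list, the median was 0.22 in cytokine and growth factor receptors (24 of 32 sites above 0), 0.17 in long synaptic genes (70 of 114), 0.13 in signaling genes (51 of 78), 0.05 in Mediator genes (10 of 16), -0.02 in chromatin regulators (18 of 39), 0.08 in lymphoid genes (8 of 12) and -0.0032 in megakaryocyte, platelet and adhesion genes (9 of 18), beside 0.06 over all sites. Of the mature myeloid sites 2 of 2 were above 0, and of the erythroid sites 1 of 3. On this same relative scale, 3381 of all 6018 sites were above 0.

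What the sites shared in sequence was examined in the 200 bp around the KO summit. Median GC content was 49.5% (quartiles 45.0 and 54.0), above the 42.5% of all 3579531 eligible intron windows and below the 63.0% of shared sites near start sites. Repeats covered 11.1% of the bases on average, against 29.5% of the eligible windows. The motifs, searched on both strands, were PU.1 (GAGGAAGT), ETS (CCGGAAGT), ERG/FLI1 (ACAGGAAG), RUNX (TGTGGTT), the GATA motif (AGATAAG), E-box (CAGCTG), SCL-type E-box (CAGATG), AP-1 (TGANTCA), CEBP (TTGCNNCAA), IRF (GAAANNGAA), CTCF (AGNNGGCGC), KLF (GGGTGTGG), SP (GGGGCGGGG), MEIS (TGACAGNT), HOX (TGATTTAT), MYB (AACNGTC), MEF2 (CTANNNATA) and NFI (CTTGGCA). PU.1, ETS and ERG/FLI1 share the core GGAAG but differ in the letters just before it, so the same core is not counted under several. They can overlap each other and the IRF letters at the ends only. A match is a description of letters and not a bound site.

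The motif of PU.1, an ETS factor of myeloid and stem cells, was in 642 of 6152 sites (10.4%, 95% Wilson interval 9.70 to 11.2) and in 1.16% of the eligible windows. RUNX was in 14.9% of the sites (13.99 to 15.8) against 4.89% of windows, and ERG/FLI1 in 9.70% (8.99 to 10.47) against 1.87%. GATA letters were in 6.26% against 2.93%, the E-box in 16.4% against 7.65% and AP-1 in 11.1% against 6.03%. The SCL-type E-box was as frequent in the sites (15.6%) as in the windows (15.1%), and the AT-rich MEF2 letters were less frequent (6.13% against 9.53%). At least 1 of PU.1, ERG/FLI1, RUNX and GATA was present in 1904 sites with 1 and 306 with several, and 3942 sites (64.1%) held none of these letters. The difference in GC content between sites and windows moves with these shares, and its part in them was not tested.

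Intergenic distal sites had a similar order of shares, with 14.4% for RUNX (13.6 to 15.2). Their shares were lower than in the intronic sites for PU.1, at 8.93% (8.28 to 9.62), and for ERG/FLI1, at 8.13% (7.51 to 8.79), and the intervals did not overlap. CTCF, the boundary factor, was more frequent there, with 4.52% (4.06 to 5.03) against 2.65% (2.28 to 3.08) in the intronic sites, and so was SP, with 2.10% (1.79 to 2.47) against 1.398% (1.13 to 1.72). Sites near start sites had another profile, with SP in 14.3%, CTCF in 10.2% and ETS in 4.77%, where the intronic sites had 1.398%, 2.65% and 0.455%. In the upper 25% of intronic sites by KO fold, PU.1 letters were in 13.1% and RUNX in 19.1%, against 7.02% and 11.2% in the lower 25%.

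**Figure D5:**
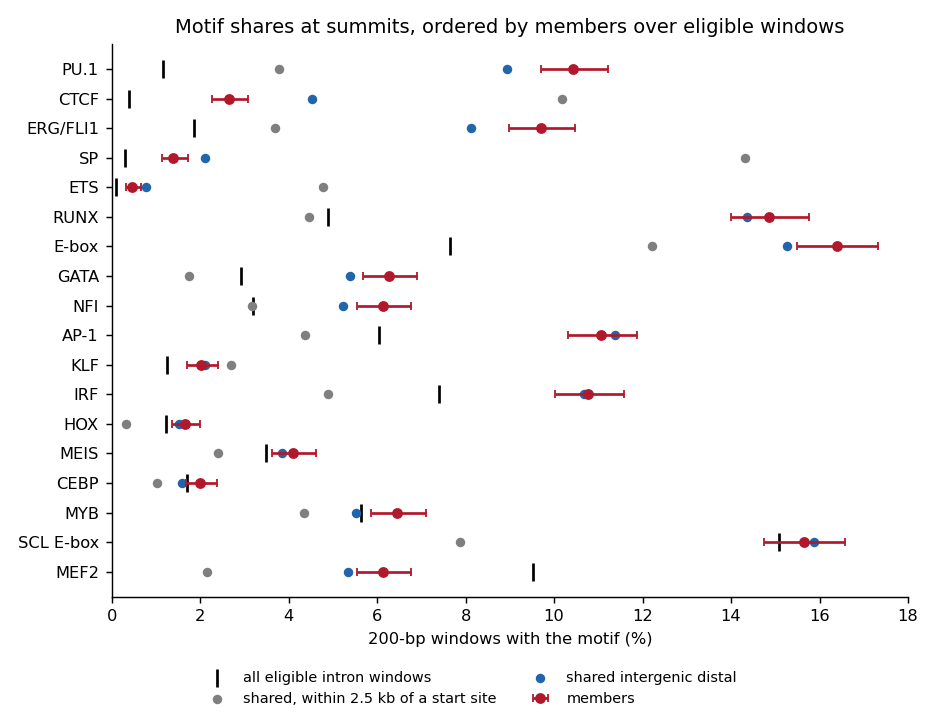
Share of 200-bp windows with each motif (horizontal axis, percent) in the intronic sites (red, with 95% Wilson intervals), shared intergenic distal sites (blue), shared sites near start sites (gray) and all eligible intron windows (black bars). Intronic and intergenic sites lie close together, well to the right of the black bars for PU.1, ERG/FLI1 and RUNX, and sites near start sites stand apart at SP, CTCF and ETS.

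Ratios differed little by motif. The median relative log2 ratio was 0.13 (95% interval 0.08 to 0.18) in the 630 sites with PU.1 letters and 0.06 in the 5388 without. With RUNX it was 0.11 (0.08 to 0.16, 900 sites) and without 0.06. Of the others, by this pileup measure, HOX was highest at 0.25 (0.09 to 0.33, 102 sites) apart from the 27 ETS sites, and KLF lowest at -0.02 (-0.08 to 0.08, 123 sites). The order was another one in the authors' fold. There the value was 0.05 with PU.1 and -0.02 without, and 0.04 and -0.02 for RUNX. HOX was at 0.03 by fold, KLF at -0.04, and the lowest were CTCF and MEIS, both at -0.06. Sites with PU.1 letters also had more fragments, with a median summed pileup of 40 against 36. Within the 5 pileup groups the sites with PU.1 letters were higher than those without in 4, and level in the middle one at 0.07 against 0.08. Other motifs did not follow PU.1 in each group. RUNX sites were lower than the rest in the highest group, at 0.11 against 0.14, level in the middle one at 0.08, and higher in the remaining groups. GATA sites were at 0.06 against 0.14 in the highest group, but at 0.16 against 0.08 in the fourth, and close to the rest in the other groups. Sites with ERG/FLI1 letters were lower in the second group (-0.04 against 0.02) and in the fourth (-0.03 against 0.10), and at 0.05 against 0.07 over all groups.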

How the data were processed

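ATAC-seq was measured in 4 samples, 2 WT and 2 KO, which share 1 deposited peak list per genotype. By their account, the authors used trim_galore for trimming, Bowtie2 for alignment to mm10 (fragments up to 2 kb allowed), Picard to drop duplicate and mitochondrial reads, and MACS2 without a fragment model for peak calling. Versions are not given in the sources used here, and whether replicates were pooled is not stated. The deposited lists give each peak's fold enrichment of the summit over the local background, its −log10 p and −log10 q, and an integer display score made from the −log10 q, which was not used. The deposited summit lists hold the same summit positions.

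The depth is unknown, as no read totals are given. The pileup and local background of each summit were solved from the fold and −log10 p under the caller's Poisson model, and a whole-number pileup matched within 0.001 for 99.99% of peaks in each list. The list background, the median of the 1000 lowest local values, was 1.13 in KO and 1.19 in WT. A ratio is KO over WT pileup over list background, on the log2 scale with no pseudocount. Called means at least 1.5-fold from the median of all shared autosomal regions with 1 peak of each list. Intervals are Wilson for shares, exact binomial for ratios and order-statistic binomial for medians, at 95%. They cover counting error only, since each genotype has 1 list. Those of ratios treat the stacked fragments or reads as independent, which was not tested. Positions use GENCODE M21 and the GRCm38.p6 RefSeq sequence, introns are those of the APPRIS principal transcript, and an eligible intron meets the rule's position criteria. The recovery and ratio steps were tested on simulated data. Python 3.11.15, numpy 2.4.6, pandas 2.3.3 and scipy 1.17.1 were used.

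The sites, gene lists, motifs and naming rule were chosen with earlier results of these data known. The genes named are the 10 hosts with the most sites, the 5 densest with 3 or more, the hosts among hematopoietic transcription factors, and the 3 leading hosts of each other list, except a few genes that are not reported here. The sites named are the 5 strongest, the 5 widest and the 5 highest and 5 lowest ratios at a summed pileup of at least 40. Hosts with the highest and lowest median ratios were chosen after their values were seen.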

Additional observations from a re-analysis of the deposited data

How the results depend on the processing

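The counts, widths and ratios were recomputed with start sites over 1 or 5 kb away, exons of coding genes only, a −log10 q minimum of 10 in each list, an overlap covering 50% or more of each peak, and chromosome X included. The ratios were also recomputed with the authors' fold enrichment, raw pileups and, for all 6152 sites, the WT peak of most overlap. The comparisons with all shared regions and with sites near start sites were added after the data were seen. The −log10 q limit left 2534 sites in 1772 hosts with a median KO width of 699 bp. It reversed the median log2 width ratio to -0.0031 and gave 7.56% of sites at least 1.5-fold higher and 3.72% lower. The shares of all shared regions under that limit are not given here, and the 7.56% of all shared regions stated earlier is without it. The authors' fold enrichment gave a median log2 ratio of 0.25 and 4.24% of sites higher. It reversed the difference from all shared regions to -0.0097 and that from sites near start sites to -0.022. Raw pileups gave a median ratio of 0.14. A 2-fold limit gave 1.96% higher and 1.20% lower, against 1.19% and 1.01% of all shared regions. An overlap of 50% gave a median width of 588 bp, and start sites over 1 kb away a first-intron share of 32.1%. The causes of these changes were not tested, apart from the fewer sites that stricter limits keep. All other values of these results stayed within their interval or, for counts, within 1.5 times. Each of the 18 motif shares moved with windows of 100 or 400 bp, and 12 moved under the −log10 q limit. No paired analysis was possible because both replicates of a genotype share 1 peak list, and for the same reason no replicate could be left out. Most single-site ratios rest on fewer than 50 fragments, which limits their precision.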
